A study of Homo sapiens with 12 samples.

Results

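The genes examined here encode the human respiratory chain, the set of 5 protein complexes of the inner mitochondrial membrane that carries out oxidative phosphorylation. Complexes I to IV pass electrons to oxygen and, except for complex II, pump protons; complex V, the ATP synthase, uses the proton gradient to make ATP. Most subunits are encoded in the nucleus and imported, while the mitochondrial genome encodes a small core of complexes I, III, IV and V, so an assembled complex other than II needs transcripts from both genomes. Nuclear subunit genes are transcribed by RNA polymerase II, and factors such as NRF1, GABPA and YY1 are known to act at many of their promoters. The mitochondrial genes are transcribed as long polycistronic RNAs by a dedicated polymerase with the factor TFAM.

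Members were the protein-coding genes whose symbols begin with NDUFA, NDUFB, NDUFC, NDUFS, NDUFV, UQCR, COX4I, COX5, COX6, COX7, COX8 or ATP5, together with SDHA, SDHB, SDHC, SDHD, CYC1 and the 13 protein genes of the mitochondrial genome (MT- genes). The rule took 112 of the 60708 genes in the files, 99 of them nuclear and 13 mitochondrial. By role they were 38 genes of complex I, 8 complex I assembly factors (NDUFAF1 to NDUFAF8, which the symbol rule includes although they are not subunits), 4 of complex II, 10 of complex III, 19 of complex IV, 20 of complex V and the 13 mitochondrial genes. The 38 genes of complex I include NDUFAB1, an acyl carrier protein, and the readthrough gene NDUFC2-KCTD14. Those of complex IV include NDUFA4, a subunit first assigned to complex I, and those of complex V include the ATP synthase inhibitor ATP5IF1 and the readthrough gene ATP5MF-PTCD1. The readthrough genes share exons with their neighbours, and UQCRHL is a near copy of UQCRH, so the counts of these genes depend on how reads were divided and are uncertain.

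The 12 mRNA-seq libraries came from hTERT RPE-1, a retinal pigment epithelial line immortalised with telomerase, in 4 stable clonal lines. LmnB1_16 and LmnB1_6 overexpressed a fusion of mCherry with lamin B1, a protein of the nuclear lamina, and mCherry_4 and mCherry_3 overexpressed the fluorescent protein mCherry alone. All 4 clones, controls included, were treated with 0.05 ug/mL doxycycline over 24 hours and grown with hygromycin B. Doxycycline is an antibiotic that also acts on mitochondrial ribosomes, and no library without it is analysed here. Each clone gave 3 libraries named as biological replicates. A construct is thus 2 clones of 3 libraries, and the 6 libraries of a construct are not 6 independent lines. The labels do not say how separate the cultures were, so p-values speak only of the spread among these libraries.

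Total estimated counts were 20.6 to 29.5 M per library. LMNB1 itself was at 3126 to 4135 CPM (counts scaled to the library total) in the 6 LmnB1 libraries and at 77.2 to 169 CPM in the 6 mCherry libraries. The keratins KRT8 and KRT18 were present in all clones, with means of 291 to 613 CPM per clone, while CDH1, EPCAM, RPE65 and TYR were at or near 0 in all 12 libraries. The pigment epithelial regulators MITF and OTX2 were at or near 0 in LmnB1_6 and at 11.1 to 58.6 CPM as means of the other clones, and the fibroblast gene COL1A1 was at 186 CPM in LmnB1_6 and 15.1 to 20.5 CPM in the others. LRAT was at 0.171 CPM in LmnB1_6 and 1.29 to 3.60 CPM in the others, PMEL at 2.09 CPM in LmnB1_6, between mCherry_4 and mCherry_3 (4.54), and DCN, COL1A2, LUM, RLBP1 and BEST1 were under 1 CPM in every library. Of the 2 fibroblast genes tested, COL1A1 was called higher and the other, under 1 CPM, lower in LmnB1_6 against each mCherry clone. Whether these marker differences bear on the respiratory chain values was not tested. In bulk RNA, fewer cells of a type and less RNA per cell cannot be told apart.

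Levels are first given in TPM, a unit of transcript abundance that divides by transcript length and so allows genes to be compared. The mitochondrial genes were far above the nuclear members. MT-CO1, the catalytic subunit of complex IV, averaged 7927 ± 614 TPM over the 12 libraries (SD, n = 12), and the lowest of the 13, MT-ND5, averaged 1875 TPM. The highest nuclear member was ATP5MF, a membrane subunit of complex V, at 1080.2 ± 150.02 TPM. Each of the 13 mitochondrial genes was thus above each of the 91 nuclear members that passed the filter on low counts. MT-ND3, MT-CO2, MT-ATP6, MT-ND4L and MT-CO3 followed MT-CO1, at 7057, 6827, 5744, 5495 and 5425 TPM. MT-ND4 averaged 3597 TPM, MT-CYB 3014, MT-ND2 2617, MT-ND6 2323, MT-ND1 2186 and MT-ATP8 1925. The values of the shortest genes (MT-ATP8, MT-ND4L and MT-ND3) rest on the largest length corrections. On the mitochondrial genome (GRCh38), MT-ATP8 (bases 8366 to 8572) overlaps MT-ATP6 (8527 to 9207) and MT-ND4L (10470 to 10766) overlaps MT-ND4 (10760 to 12137), so the reads of each pair are split by estimation. MT-ND6 is encoded on the other strand, and the sources used here do not give the strand of the libraries.

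Among nuclear members, complexes IV and V had the highest levels per gene, with medians of 371 and 316 TPM, and complex II had the lowest median among the 5 complexes, at 104 TPM. Complex I had a median of 181 TPM and complex III of 158 TPM, while the 8 complex I assembly factors had a median of 25.9 TPM. After ATP5MF the highest members were ATP5MK of complex V at 979 TPM, COX8A of complex IV at 858 TPM, ATP5F1B (the catalytic beta subunit of complex V) at 699 TPM and COX7C of complex IV at 639 TPM. In complex I the highest were NDUFS5 at 474 TPM and NDUFA13 at 450.3 TPM, and in complex III UQCRH at 552 TPM and UQCRQ at 338 TPM. The 4 genes of complex II, the succinate dehydrogenase that also works in the citric acid cycle, lay close together, with SDHC at 123 TPM, SDHB at 116, SDHA at 92.1 and SDHD at 89.2.

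**Figure D1:**
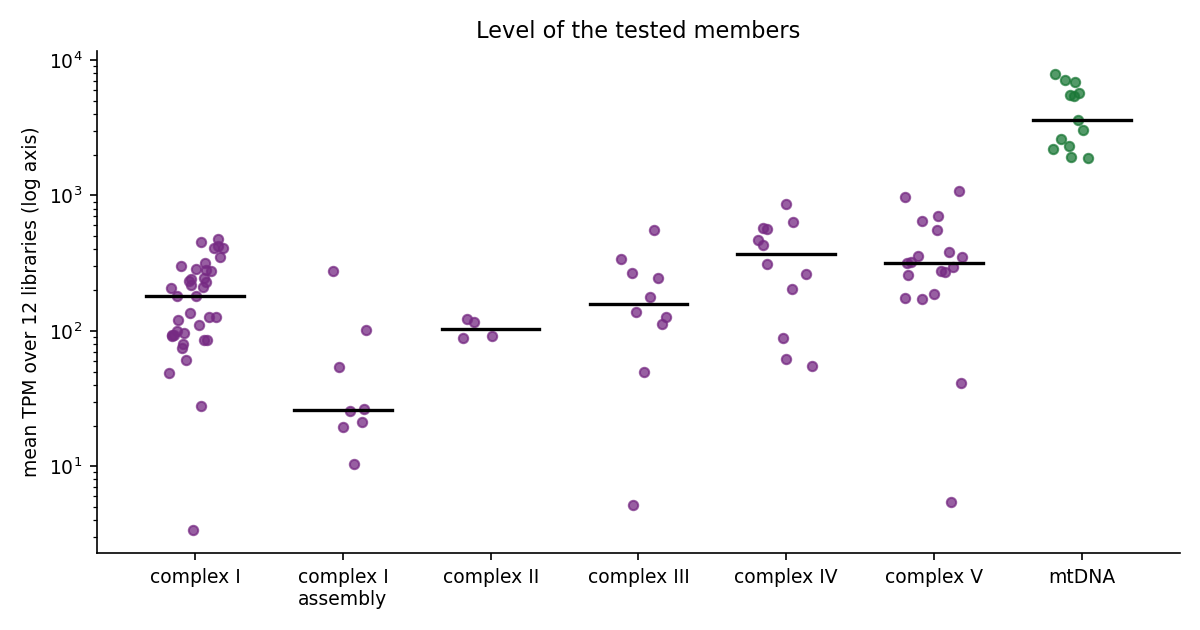
Mean TPM over the 12 libraries of each of the 104 tested members, 1 point per gene, by complex, on a log axis. The 13 mitochondrial genes lie between 1875 and 7927 TPM, above every nuclear member, of which ATP5MF is highest at 1080 TPM.

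Alternative isoforms of a subunit were used unequally. COX6A2, COX8C, COX4I2 and COX7B2 had 0 counts in all 12 libraries, which allows up to 0.0103 CPM over the pooled libraries at the limit of 3 counts, a limit that covers counting error only. COX7A1, the heart and muscle form, had 5 counts in all and the ATP5MG-like gene ATP5MGL had 2. NDUFA4L2, a gene known to be induced by hypoxia, had 32 counts and at most 0.342 CPM in a library, and COX6B2 had 44 counts and at most 0.302 CPM. These 8 genes did not pass the filter and are the untested members. Their partners COX6A1, COX8A, COX4I1, COX7A2, COX7B, NDUFA4 and COX6B1 were all expressed, at 573, 858, 569, 429, 61.9, 55.4 and 467 TPM. COX7A2L, which takes part in the assembly of supercomplexes, was at 88.0 TPM. The ring subunit c of complex V is encoded by 3 genes with the same mature protein, and ATP5MC2 was at 558 TPM, ATP5MC3 at 316 and ATP5MC1 at 274. UQCRHL was at 5.17 TPM against 552 TPM for UQCRH.

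Both genomes were compared by their share of each library. The 13 mitochondrial genes took 2.33%, 2.37% and 2.04% of all counts in LmnB1_16, 2.42%, 2.47% and 2.15% in LmnB1_6, 2.15%, 2.24% and 1.96% in mCherry_4 and 2.51%, 2.12% and 2.23% in mCherry_3. The 4 clones overlapped throughout. The share averaged 2.30 ± 0.167% in LmnB1 libraries and 2.20 ± 0.181% in mCherry libraries (SD, n = 6 each), a difference of 0.0946 percentage points against a standard deviation of 0.175 points between libraries of a clone. The share of counts on the mitochondrial genome was therefore not separable by construct at this replication.

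The 99 nuclear members took 0.744%, 0.604% and 0.726% of all counts in LmnB1_16, 0.739%, 0.733% and 0.734% in LmnB1_6, 0.702%, 0.681% and 0.733% in mCherry_4 and 0.789%, 0.841% and 0.807% in mCherry_3. All 3 mCherry_3 libraries lay above the other 9, and LmnB1_16 replicate 2 lay below the other 11. As means the share was 0.691 ± 0.0760% in LmnB1_16, 0.735 ± 0.00320% in LmnB1_6, 0.705 ± 0.0263% in mCherry_4 and 0.812 ± 0.0267% in mCherry_3 (SD, n = 3 each). Without its replicate 2, LmnB1_16 averaged 0.735 ± 0.0122% (SD, n = 2), beside LmnB1_6. mCherry_4 was the lowest of the 4 clones in that case, so in these shares the clone that stood apart was mCherry_3 and the constructs did not separate. The shares use unscaled library totals, and the mCherry_3 libraries had the highest scaling factors. In scaled values, the nuclear members had median log2 deviations from the mean of all libraries of 0.130 and 0.0771 in mCherry_3 replicates 2 and 3, still the highest. Replicate 1, at 0.0362, lay below mCherry_4 replicate 3 (0.0472) and LmnB1_16 replicate 1 (0.0496). The full separation of mCherry_3 thus held only without scaling.

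The summed TPM of the 13 mitochondrial genes was 2.66, 3.38 and 2.26 times that of the nuclear members in LmnB1_16, 2.68, 2.76 and 2.35 times in LmnB1_6, 2.51, 2.79 and 2.13 times in mCherry_4 and 2.57, 2.01 and 2.22 times in mCherry_3. The highest ratio belonged to LmnB1_16 replicate 2, whose nuclear members were low, and the lowest to mCherry_3 replicate 2. The ratio averaged 2.68 ± 0.395 in LmnB1 and 2.37 ± 0.297 in mCherry libraries (SD, n = 6 each), and 2.54 ± 0.221 in LmnB1 without that library (n = 5). The difference between the constructs was within 1 SD of the LmnB1 libraries, and smaller without that library. In TPM, 4.81% to 6.33% of the transcripts of a library were mitochondrial protein transcripts and 1.85% to 2.52% came from the nuclear members. Nuclear pseudogenes of mitochondrial genes, which can take up mitochondrial reads, held counts equal to 0.40% to 0.68% of those on the mitochondrial genes, led by MTATP6P1.

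**Figure D2:**
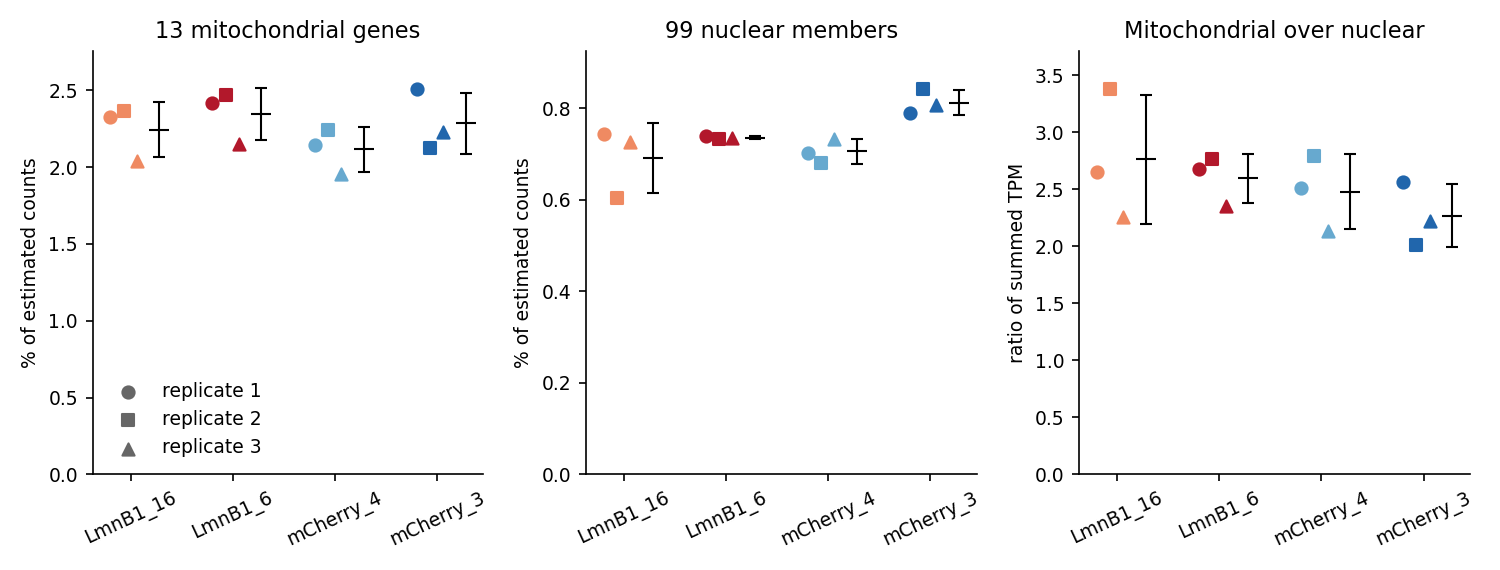
Share of counts on the 13 mitochondrial genes, share of counts on the 99 nuclear members (both in percent) and ratio of their summed TPM, 1 point per library with the mean ± SD of each clone in black. The mitochondrial shares overlap between all clones at 1.96% to 2.51%, while mCherry_3 is highest in the nuclear share and LmnB1_16 replicate 2 lowest at 0.604%.

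LmnB1_16 replicate 2 differed from the other libraries by transcript length. Over all genes with at least 5 CPM in every library, its median log2 deviation from the mean of the 12 libraries was -0.38 for transcripts of up to 500 bases, -0.22 at 500 to 1000 bases, -0.09 at 1000 to 2000 bases, 0.04 at 2000 to 5000 bases and 0.16 beyond 5000 bases. Nuclear members are short: 58 of the 91 tested had transcripts of up to 1000 bases, compared with 1683 of all 15388 genes tested. Their median deviation in this library was -0.29, and that of complex IV -0.45. The mitochondrial genes are as short, with a median of 784 bases, and had a median deviation of 0.12 in the same library. For nuclear members, the call counts by contrast, the construct medians by complex and the clone order are given with and without this library. Other values that involve LmnB1_16 include it unless stated. The part of transcript length or of other features of this library in the results was not tested beyond those values.

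**Figure D3:**
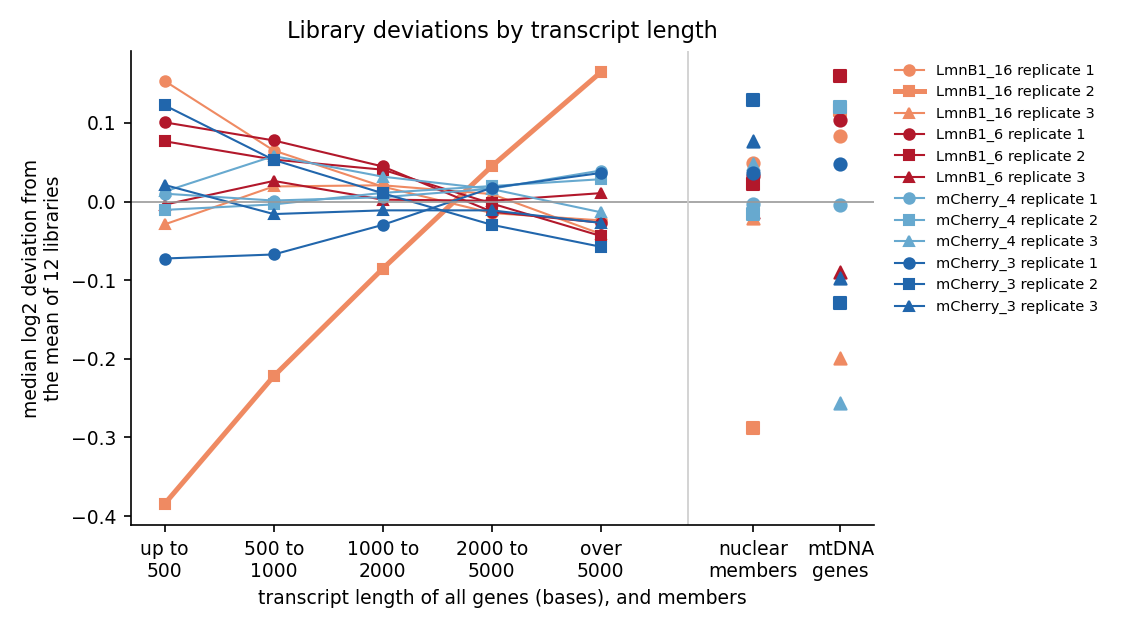
Median log2 deviation of each library from the mean of 12 libraries, for all genes by transcript length (lines, left) and for the nuclear members and the mitochondrial genes (points, right). The thick line is LmnB1_16 replicate 2, which runs upward with length while the other 11 stay within -0.07 to 0.15, and its nuclear members lie at -0.29.

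The construct comparison asked whether overexpressed lamin B1 went with a different level of respiratory chain transcripts. Of 104 tested members, 1 passed an adjusted p of 0.05, and it was lower in LmnB1, whereas 17.8% of all 15388 genes tested were called (8.58% higher and 9.25% lower). None of the 13 mitochondrial genes passed in edgeR's quasi-likelihood test. At an unadjusted p under 0.05 there were 22 members, 21 of them nuclear and 1 mitochondrial, and DESeq2 called 9 members, MT-CO1 (higher) among them. The count was 3 without replicate 1 or 2 of LmnB1_16 or replicate 3 of mCherry_4, and 4 without replicate 2 of mCherry_4. Leaving out a whole clone, it was 7 without LmnB1_16, 0 without LmnB1_6, 18 without mCherry_4 and 0 without mCherry_3, while the share of all genes called was 31.7%, 8.38%, 32.5% and 4.32% in the same order. The construct fit counts the differences between clones as spread, with a biological coefficient of variation of 0.262, against 0.0842 where each clone was its own group. The changes were small: 98 of 104 members lay within 1.2-fold, as did 9037 of the 15388 genes tested. The 95% interval of the log2 fold change lay within 0.58, or 1.5-fold, on both sides of 0 for 87 of 91 nuclear members and for all 13 mitochondrial genes. The exceptions were both readthrough genes, NDUFA7 and NDUFAF4. These intervals take the 6 libraries of a construct as independent, though they come from 2 clones. No member was called in 1 direction in each of the 4 pairings of LmnB1 clones and mCherry clones by edgeR or DESeq2, which 4.68% of all genes were (1.77% higher and 2.91% lower).

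The called member was NDUFB5 (ENSG00000136521.13, plus strand of chromosome 3, bases 179604690 to 179627647 of GRCh38), an accessory subunit of the membrane arm of complex I. NDUFB5 had 44.7, 42.5 and 43.5 CPM in LmnB1_16, 41.0, 39.1 and 44.5 in LmnB1_6, 45.9, 45.5 and 56.4 in mCherry_4 and 59.0, 57.6 and 56.0 in mCherry_3. All 6 LmnB1 libraries lay below all 6 mCherry libraries, and within mCherry the mCherry_3 libraries and replicate 3 of mCherry_4 were the high ones. The means were 42.6 ± 2.18 CPM in LmnB1 and 53.4 ± 6.06 CPM in mCherry (SD, n = 6 each), with a log2 fold change of -0.33 (SE 0.08, adjusted p = 0.0146) by edgeR's quasi-likelihood test. Between clones the log2 fold change was -0.40 (adjusted p = 0.000644) for LmnB1_16 and -0.47 (adjusted p = 0.000115) for LmnB1_6 against mCherry_3, and -0.18 (adjusted p = 0.165) for LmnB1_16 and -0.24 (adjusted p = 0.0248) for LmnB1_6 against mCherry_4. mCherry_4 was itself below mCherry_3, at -0.22 (adjusted p = 0.0355). The call was lost without mCherry_3, at -0.21 (adjusted p = 0.184), and without LmnB1_6, at -0.29 (adjusted p = 0.0912). The call between the constructs held when any 1 library was left out. That of LmnB1_6 against mCherry_4 was lost without replicate 1 or 2 of LmnB1_6 or replicate 3 of mCherry_4 (adjusted p up to 0.173), and that of mCherry_4 against mCherry_3 in 5 of 12 cases (up to 0.161).

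SDHA, the flavoprotein of complex II, was the other member whose 6 LmnB1 libraries lay wholly below the 6 mCherry libraries, a separation that 8.66% of all genes tested showed, 4.85% with LmnB1 lower and 3.8% with LmnB1 higher. SDHA had 128, 130.0 and 135 CPM in LmnB1_16, 132, 122 and 130.3 in LmnB1_6, 139, 139 and 155 in mCherry_4 and 136, 148 and 140.4 in mCherry_3. The ranges of the constructs met closely, at 135 CPM in LmnB1_16 replicate 3 and 136 CPM in mCherry_3 replicate 1. The means were 129.7 ± 4.396 CPM in LmnB1 and 143 ± 7.19 CPM in mCherry (SD, n = 6 each). The difference missed the threshold, with a log2 fold change of -0.14 (SE 0.05, adjusted p = 0.0507). SDHA and UQCRC1 were singled out after their values were seen. UQCRC1, a core subunit of complex III, differed between clones. UQCRC1 had 210.1, 204 and 217 CPM in LmnB1_16, 256, 249 and 230.2 in LmnB1_6, 206, 205 and 218 in mCherry_4 and 178, 186 and 186 in mCherry_3. LmnB1_6 was highest, mCherry_3 lowest, and LmnB1_16 overlapped mCherry_4. Against mCherry_3 the log2 fold change was 0.20 (adjusted p = 0.00776) in LmnB1_16 and 0.42 (adjusted p = 7.43e-06) in LmnB1_6, while against mCherry_4 it was 0.00 (adjusted p = 0.975) in LmnB1_16 and 0.23 (adjusted p = 0.00358) in LmnB1_6. Over the constructs UQCRC1 did not pass, with a log2 fold change of 0.21 (SE 0.07, adjusted p = 0.0566). It passed without replicate 2 of LmnB1_16 (0.24) or replicate 3 of mCherry_4 (0.24), and without all of LmnB1_16 (0.32) or of mCherry_4 (0.31).

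By complex, the nuclear members leaned slightly lower in LmnB1: 72 of 91 had a negative log2 fold change and the median was -0.07, beside a median of 0.00 over all genes. Complex I had 30 of 38 below 0 with a median of -0.07, and only NDUFB5 was called. Its 8 assembly factors had 5 below 0 (median -0.10), complex II 4 of 4 (median -0.10) and complex III 6 of 10 (median -0.04). Complex IV had 12 of 12 below 0 with a median of -0.11, and complex V had 15 of 19 with a median of -0.06. Without LmnB1_16 replicate 2 the nuclear median was -0.03 with 56 of 91 below 0. Complex I then had 22 of 38 below 0 (median -0.02), its assembly factors 5 of 8 (-0.06), complex II 4 of 4 (-0.09), complex IV 10 of 12 (-0.04) and complex V 11 of 19 (-0.02), and the median of complex III turned to 0.03 with 4 of 10 below 0. In that setting 3 nuclear members were called, beside 17.7% of all genes. ATP5MC1 (log2 fold change 0.28) and UQCRC1 (0.24) were higher in LmnB1 and NDUFB5 (-0.33) was lower. With each library's length trend removed, the nuclear median was -0.08 with 72 of 91 below 0, and 12 were called. UQCRC1 was higher in LmnB1, and ATP5PD, COX6B1, COX6C, COX7A2, NDUFA1, NDUFA8, NDUFB3, NDUFB5, NDUFV2, SDHA and SDHC were lower, beside 20.1% of all genes. With a whole clone left out, the nuclear median was -0.03 without mCherry_3 (55 of 91 below 0) or LmnB1_16 (56 of 91). It was -0.11 without LmnB1_6 (77 of 91) and -0.13 without mCherry_4 (73 of 91). Without mCherry_3, complex I was at -0.01 with 20 of 38 below 0, and complex III at 0.04 with 2 of 10. Complexes II, IV and V were then at -0.07, -0.07 and -0.06.

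**Figure D4:**
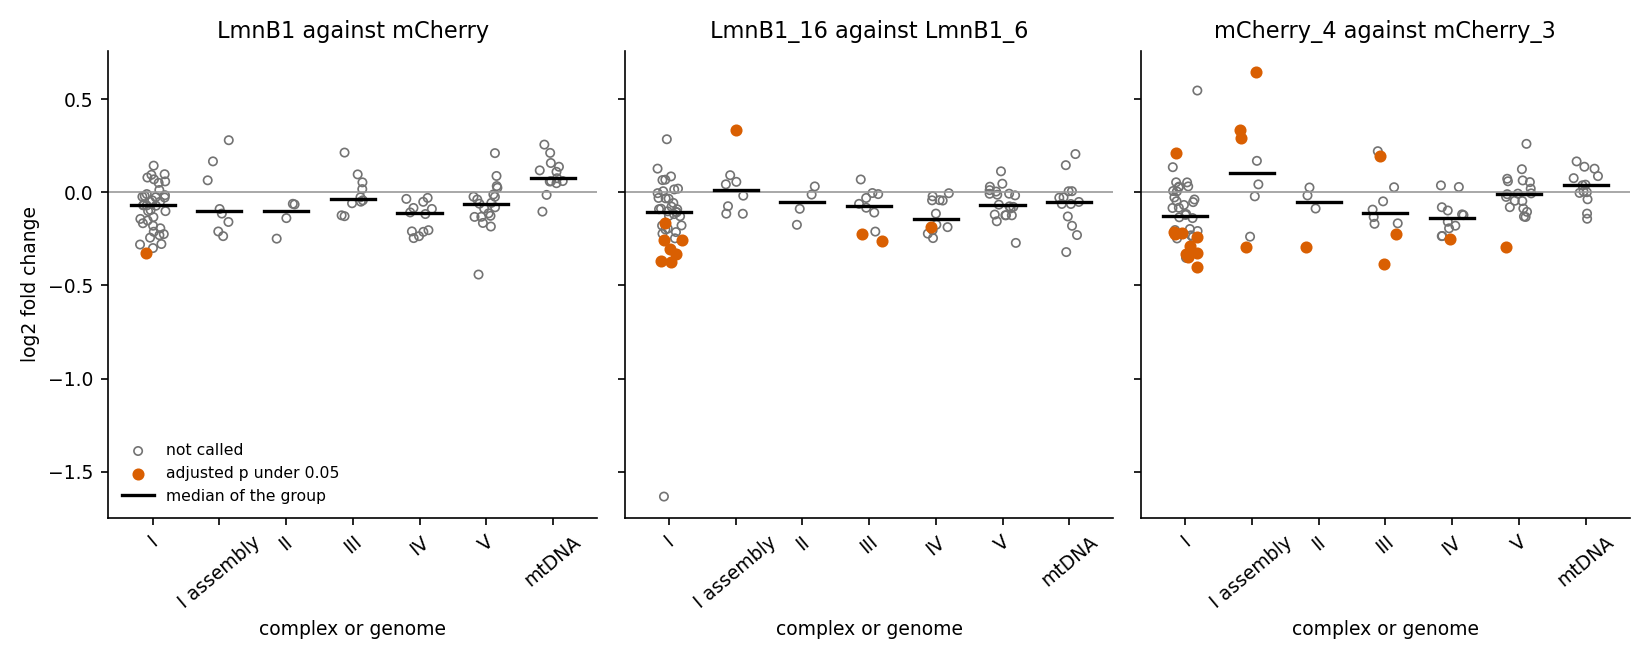
Log2 fold change of each tested member by complex in LmnB1 against mCherry, LmnB1_16 against LmnB1_6 and mCherry_4 against mCherry_3, 1 point per gene, filled orange where the adjusted p is under 0.05, with a line at the median of each complex. The construct comparison has 1 filled point, the contrast of the LmnB1 clones 11 and that of the mCherry clones 20. The contrasts of clones came from a separate fit with each clone as its own group. The lowest point of the middle panel is the readthrough gene NDUFC2-KCTD14, which was not called.

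The most abundant members of each complex had the following values. NDUFS5 had 74.3, 60.9 and 78.7 CPM in LmnB1_16, 85.8, 91.3 and 92.7 in LmnB1_6, 76.4, 80.5 and 81.9 in mCherry_4 and 78.5, 88.4 and 86.2 in mCherry_3. NDUFS5, a small subunit of complex I, had its highest mean in LmnB1_6 and its lowest in LmnB1_16. NDUFA13 had 70.1, 56.7 and 78.0 CPM in LmnB1_16, 83.02, 78.0 and 83.5 in LmnB1_6, 73.7, 71.6 and 76.0 in mCherry_4 and 86.2, 102 and 89.9 in mCherry_3. NDUFA13, also known as GRIM-19, was highest in mCherry_3, and among the others LmnB1_6 lay above mCherry_4 while LmnB1_16 overlapped both. SDHB had 56.3, 54.2 and 56.8 CPM in LmnB1_16, 60.1, 59.0 and 59.0 in LmnB1_6, 59.9, 59.8 and 55.1 in mCherry_4 and 60.3, 62.1 and 63.3 in mCherry_3. SDHB, the iron-sulfur subunit of complex II, varied little, with the 3 mCherry_3 libraries just above the other 9. SDHC had 64.3, 54.9 and 66.6 CPM in LmnB1_16, 71.0, 69.0 and 69.9 in LmnB1_6, 72.1, 66.1 and 73.2 in mCherry_4 and 86.7, 87.0 and 85.2 in mCherry_3. SDHC, a membrane anchor of complex II, stood apart in mCherry_3, whose lowest library was above the highest of the other 9, and over the constructs it did not pass, with a log2 fold change of -0.25 (SE 0.09, adjusted p = 0.0595). It passed without replicate 2 of mCherry_4, at -0.29, and without all of mCherry_4, at -0.39.

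In complex III, UQCRQ had 101, 64.5 and 90.7 CPM in LmnB1_16, 93.1, 90.5 and 92.5 in LmnB1_6, 83.03, 89.1 and 89.1 in mCherry_4 and 90.3, 103 and 99.4 in mCherry_3. UQCRQ, a small accessory subunit, was low in LmnB1_16 replicate 2, and mCherry_4 lay below LmnB1_6, mCherry_3 and the other 2 libraries of LmnB1_16. UQCRH had 105, 85.9 and 102 CPM in LmnB1_16, 119, 121 and 112 in LmnB1_6, 101, 94.3 and 101 in mCherry_4 and 103, 116 and 105 in mCherry_3. The hinge protein gene UQCRH had its highest mean in LmnB1_6. UQCRHL had 6.76, 6.83 and 6.38 CPM in LmnB1_16, 6.21, 7.07 and 6.75 in LmnB1_6, 6.86, 5.88 and 6.65 in mCherry_4 and 6.89, 8.03 and 6.88 in mCherry_3. UQCRHL, the near copy, had its highest mean in mCherry_3, whose lowest library lay just above those of LmnB1_16 and mCherry_4. In complex V, ATP5MF had 97.6, 57.3 and 91.1 CPM in LmnB1_16, 96.6, 96.2 and 104 in LmnB1_6, 89.6, 83.7 and 93.0 in mCherry_4 and 77.5, 108 and 95.6 in mCherry_3. The mCherry_3 libraries of ATP5MF spanned the values of all others except LmnB1_16 replicate 2. ATP5MK had 91.9, 59.8 and 72.3 CPM in LmnB1_16, 85.1, 81.1 and 71.9 in LmnB1_6, 82.9, 77.7 and 79.5 in mCherry_4 and 81.6, 76.5 and 71.7 in mCherry_3. ATP5MK, a small membrane subunit, overlapped between all clones.

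The 3 subunit c genes did not move together. ATP5MC1 had 66.5, 46.1 and 66.8 CPM in LmnB1_16, 67.9, 66.8 and 60.7 in LmnB1_6, 60.1, 54.9 and 61.6 in mCherry_4 and 49.9, 49.4 and 48.2 in mCherry_3. ATP5MC1 was lowest in mCherry_3, apart from LmnB1_16 replicate 2. ATP5MC2 had 157, 122 and 145 CPM in LmnB1_16, 151, 151 and 146 in LmnB1_6, 138, 132 and 148 in mCherry_4 and 132, 139 and 131 in mCherry_3. ATP5MC2 was higher in the LmnB1 libraries than in mCherry_3 apart from that same library, with mCherry_4 between and overlapping. ATP5MC3 had 158, 124 and 151 CPM in LmnB1_16, 141, 146 and 143 in LmnB1_6, 148, 153 and 156 in mCherry_4 and 159, 169.6 and 157 in mCherry_3. ATP5MC3 ran the other way, with the mCherry_3 libraries among the 4 highest.

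Complex IV, the cytochrome c oxidase, held the members most marked by LmnB1_16 replicate 2. COX8A had 141, 87.5 and 131 CPM in LmnB1_16, 143, 138 and 133 in LmnB1_6, 138, 128 and 139 in mCherry_4 and 137, 150.31 and 141 in mCherry_3. COX8A was low in that library, while the other 11 lay between 128 and 150.31 CPM. COX7C had 144, 96.4 and 133 CPM in LmnB1_16, 125, 133 and 122 in LmnB1_6, 128, 114 and 133 in mCherry_4 and 140.4, 141 and 144 in mCherry_3. COX7C was low there too, and mCherry_3 lay above LmnB1_6 and mCherry_4. COX6A1 had 106, 75.1 and 105 CPM in LmnB1_16, 107, 109 and 110.2 in LmnB1_6, 101, 97.0 and 112 in mCherry_4 and 113, 124 and 118 in mCherry_3. COX6A1 was low there too, and its mCherry_3 libraries were the highest.

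COX4I1 had 191, 146 and 179 CPM in LmnB1_16, 197, 191 and 195 in LmnB1_6, 192, 197 and 199 in mCherry_4 and 186, 199 and 191 in mCherry_3. COX4I1, the ubiquitous form of subunit 4, was level in the 11 other libraries within 179 to 199 CPM. COX6B1 had 67.7, 50.6 and 62.9 CPM in LmnB1_16, 74.7, 69.6 and 67.2 in LmnB1_6, 73.2, 68.4 and 72.1 in mCherry_4 and 81.5, 81.5 and 75.4 in mCherry_3. COX6B1 was highest in mCherry_3. COX7A2 had 95.2, 65.6 and 84.5 CPM in LmnB1_16, 86.4, 82.96 and 83.7 in LmnB1_6, 90.9, 80.8 and 91.3 in mCherry_4 and 103, 109.7 and 100.4 in mCherry_3. COX7A2 was also highest in mCherry_3, and the log2 fold change of mCherry_4 against mCherry_3 was -0.25 (adjusted p = 0.0499), a call lost in 10 of 12 cases when 1 library was left out. COX7A2L had 68.2, 66.8 and 66.7 CPM in LmnB1_16, 73.1, 69.1 and 65.7 in LmnB1_6, 70.5, 70.6 and 73.7 in mCherry_4 and 69.2, 71.4 and 68.8 in mCherry_3. COX7A2L stayed within 65.7 to 73.7 CPM over all 12 libraries, replicate 2 of LmnB1_16 included. COX7B had 48.9, 37.7 and 44.5 CPM in LmnB1_16, 44.5, 46.2 and 44.3 in LmnB1_6, 40.8, 43.4 and 45.8 in mCherry_4 and 46.5, 48.0 and 47.2 in mCherry_3. COX7B was higher in mCherry_3 than in LmnB1_6 and mCherry_4, and LmnB1_16 overlapped all of them. NDUFA4 had 67.8, 45.0 and 62.1 CPM in LmnB1_16, 65.6, 64.5 and 59.6 in LmnB1_6, 67.5, 61.9 and 67.8 in mCherry_4 and 77.0, 79.0 and 76.1 in mCherry_3. NDUFA4 was highest in mCherry_3. By summed TPM, complex IV averaged 4059.8 ± 486 in LmnB1_16, 4442 ± 101 in LmnB1_6, 4412 ± 313 in mCherry_4 and 5179.9 ± 58.8 in mCherry_3 (SD, n = 3 each). The LmnB1_16 libraries were at 4347, 3499 and 4334, with replicate 2 the low one.

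The mitochondrial genes leaned the other way from the nuclear ones, without a call by edgeR. Of 13, 11 had a positive log2 fold change in LmnB1 against mCherry, with a median of 0.08. The largest was MT-ATP6, which encodes the proton channel subunit of complex V. MT-ATP6 had 1880.1, 1816 and 1406 CPM in LmnB1_16, 2025, 2040.1 and 1517 in LmnB1_6, 1679, 1754 and 1298 in mCherry_4 and 1615, 1249.6 and 1354 in mCherry_3. The clones overlapped, and within 3 clones replicate 3 was the lowest library. The result was a log2 fold change of 0.26 (SE 0.12, adjusted p = 0.143). It was called in 1 of the 4 contrasts between constructs, LmnB1_6 against mCherry_3, with a log2 fold change of 0.40 (SE 0.14, adjusted p = 0.0196). No other mitochondrial gene was called in these 4 contrasts over all 12 libraries with the filter and scaling used and no replicate block. DESeq2 gave the same call, and limma, no scaling factors or removal of the length trend did not. With no scaling factors, MT-CO2 was lower in LmnB1_6 and MT-CO2 and MT-CYB were lower in LmnB1_16 against mCherry_3, while MT-CO1, MT-ND1 and MT-ND6 were higher in LmnB1_6 and MT-CO1 in LmnB1_16 against mCherry_4. The MT-ATP6 call was lost without replicate 1 or 2 of LmnB1_6 or replicate 2 or 3 of mCherry_3, with an adjusted p of up to 0.0889. In LmnB1_16 against mCherry_3, MT-ATP6 was newly called without replicate 3 of LmnB1_16 or replicate 1 of mCherry_3. In LmnB1_6 against mCherry_4 it was newly called without replicate 3 of LmnB1_6. With a replicate block MT-ATP6 was called in both of these contrasts, and MT-ND1 was higher in LmnB1_6 against each mCherry clone. When 1 library was left out, up to 4 mitochondrial genes were called higher in a single contrast. The lowest was MT-CYB, the cytochrome b of complex III. MT-CYB had 1764, 1837 and 1507 CPM in LmnB1_16, 1898, 1842 and 1596 in LmnB1_6, 1889.6, 2006 and 1723 in mCherry_4 and 2157, 1662 and 1784 in mCherry_3. The libraries of all 4 clones overlapped, with a log2 fold change of -0.10 (SE 0.08, adjusted p = 0.392).

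The other mitochondrial genes are given as clone means ± SD (n = 3) in CPM. Of complex IV, MT-CO1 averaged 7228 ± 403 in LmnB1_16, 7201 ± 326 in LmnB1_6, 6651 ± 327 in mCherry_4 and 6649 ± 439 in mCherry_3. MT-CO1 was somewhat higher in both LmnB1 clones, within overlapping ranges, and was called between the constructs by DESeq2 but not by edgeR. MT-CO2 averaged 1922 ± 30.9 in LmnB1_16, 1962 ± 95.7 in LmnB1_6, 1883 ± 48.4 in mCherry_4 and 2039 ± 127 in mCherry_3, and MT-CO3 averaged 1986 ± 272 in LmnB1_16, 2074 ± 299 in LmnB1_6, 1847 ± 258 in mCherry_4 and 1795 ± 323 in mCherry_3. Neither gene separated the constructs. Of complex I, MT-ND1 averaged 955 ± 117 in LmnB1_16, 1193 ± 209 in LmnB1_6, 983 ± 128 in mCherry_4 and 1009 ± 130.1 in mCherry_3. MT-ND2 averaged 1309 ± 214 in LmnB1_16, 1535 ± 277 in LmnB1_6, 1407 ± 233 in mCherry_4 and 1325 ± 134 in mCherry_3. The means of both were highest in LmnB1_6, and the libraries of the 4 clones overlapped. MT-ND3 averaged 422 ± 84.9 in LmnB1_16, 478 ± 75.9 in LmnB1_6, 429 ± 65.9 in mCherry_4 and 390.1 ± 33.1 in mCherry_3. MT-ND4 averaged 2765 ± 282 in LmnB1_16, 2866 ± 289 in LmnB1_6, 2789 ± 228 in mCherry_4 and 2555 ± 353 in mCherry_3. MT-ND5, the longest of the 13, averaged 2032 ± 307 in LmnB1_16, 2023 ± 36.6 in LmnB1_6, 1969.7 ± 152 in mCherry_4 and 1919 ± 104 in mCherry_3. The means of these 3 were lowest in mCherry_3. MT-ND6 averaged 415 ± 34.7 in LmnB1_16, 422 ± 16.4 in LmnB1_6, 385 ± 18.6 in mCherry_4 and 425 ± 19.2 in mCherry_3. MT-ATP8 of complex V averaged 49.6 ± 12.97 in LmnB1_16, 44.8 ± 6.65 in LmnB1_6, 40.7 ± 12.6 in mCherry_4 and 40.8 ± 1.67 in mCherry_3. MT-ATP8 had the widest 95% interval of the construct change, reaching a log2 value of 0.55.

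MT-ND4L had 284, 245 and 175 CPM in LmnB1_16, 182, 223 and 206 in LmnB1_6, 199, 274 and 175 in mCherry_4 and 204, 212 and 198 in mCherry_3. MT-ND4L ranged most widely within LmnB1_16 and mCherry_4, and the clones overlapped. Over all 12 libraries, with the filter and scaling used and no replicate block, edgeR called no mitochondrial gene between LmnB1_16 and LmnB1_6 or between mCherry_4 and mCherry_3. At an unadjusted p under 0.05 there was 1 in each contrast. DESeq2 called none, and limma called MT-CO2 and MT-ND6 lower in mCherry_4. With no scaling factors, edgeR called MT-ND1 lower in LmnB1_16 and MT-CO1, MT-CO2 and MT-ND6 lower in mCherry_4. MT-ND1 was also lower in LmnB1_16 with a replicate block, or without replicate 1 of LmnB1_16 or replicate 3 of LmnB1_6 or mCherry_4. MT-ND3 was lower without replicate 1 of LmnB1_16, MT-ND2 without replicate 3 of LmnB1_6. Without replicate 2 of mCherry_3, MT-CO2 was lower in mCherry_4. The median over the 13 genes was 0.11 for LmnB1_16 and 0.13 for LmnB1_6 against mCherry_3, 0.04 for LmnB1_16 and 0.13 for LmnB1_6 against mCherry_4, -0.05 for LmnB1_16 against LmnB1_6 and 0.04 for mCherry_4 against mCherry_3. With no scaling factors, the median of all genes in the last contrast moved by -0.14 and that of the mitochondrial genes was -0.10, so its sign depends on the scaling. With log2(TPM + 0.5) in limma it was -0.09, and that of LmnB1_6 against mCherry_3 was -0.01. Of the 13 genes, 6 had their highest clone mean in LmnB1_6, 4 in LmnB1_16, 2 in mCherry_3 and 1 in mCherry_4.

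**Figure D5:**
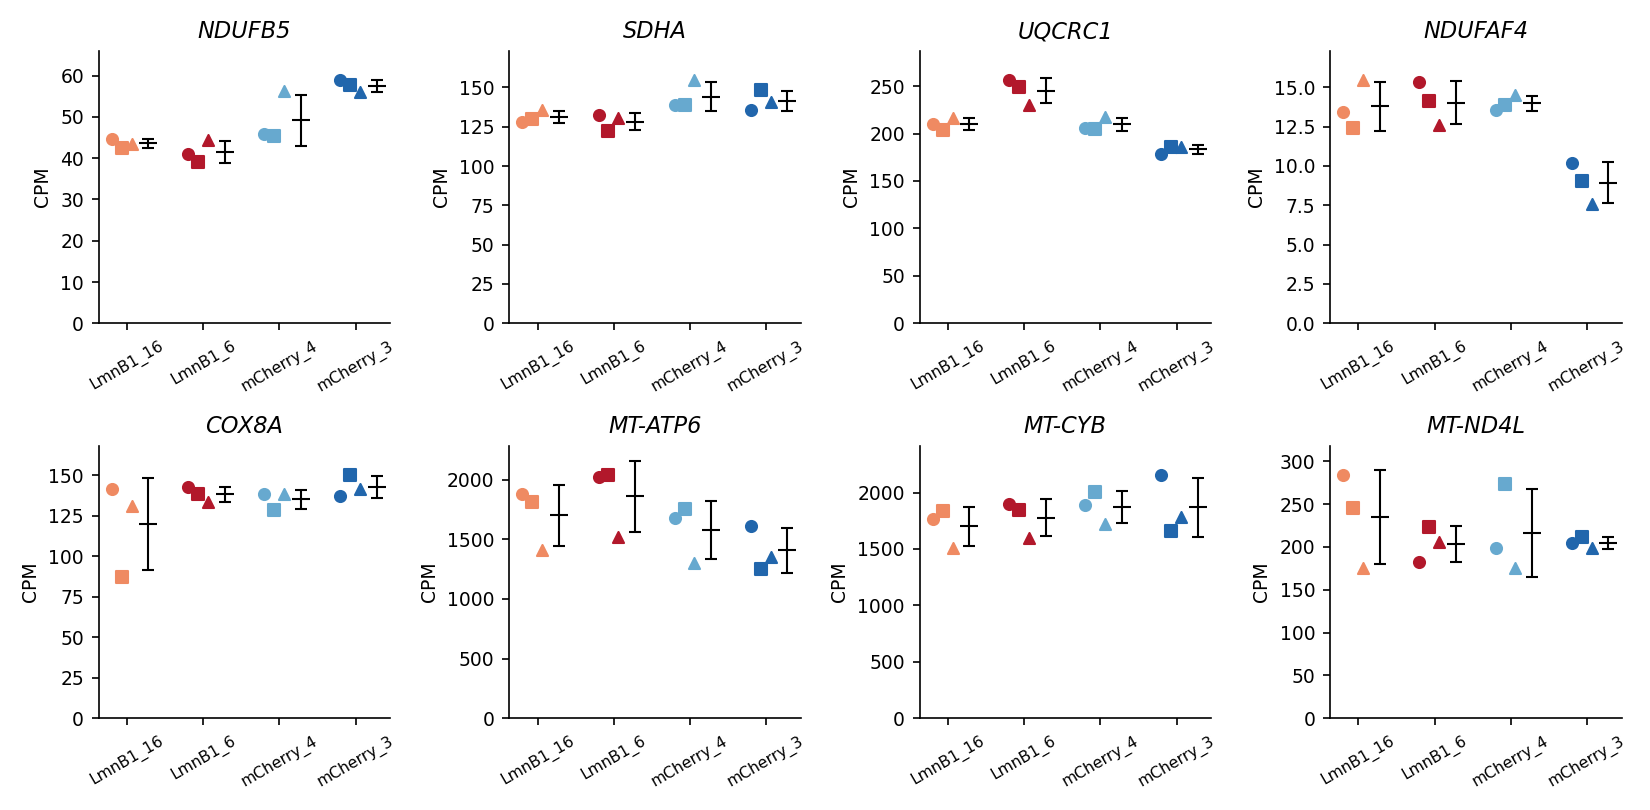
CPM of NDUFB5, SDHA, UQCRC1, NDUFAF4, COX8A, MT-ATP6, MT-CYB and MT-ND4L in each library by clone, 1 point per library with the mean ± SD of the clone. In NDUFB5 and SDHA the 6 LmnB1 points lie below the 6 mCherry points, in NDUFAF4 mCherry_3 is low, in COX8A replicate 2 of LmnB1_16 is low at 87.5 CPM, and the mitochondrial genes overlap between clones.

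Contrasts between single clones came from the fit with each clone as its own group, so their counts are not on the footing of the construct comparison. Over all 104 members they called 33 (LmnB1_16) and 28 (LmnB1_6) against mCherry_3, and 0 (LmnB1_16) and 8 (LmnB1_6) against mCherry_4. Comparisons with the same control share its libraries. Against mCherry_3, LmnB1_16 had 4 nuclear members higher and 29 lower (median log2 fold change -0.17), with 44.4% of all genes called (22.5% higher and 22.0% lower). LmnB1_6 had 7 higher and 20 lower (median -0.08), with 52.8% of all genes called (26.0% higher and 26.8% lower). Against mCherry_4, LmnB1_16 had 0 of 91 nuclear members called by edgeR and 10 at an unadjusted p under 0.05 (median -0.08), with 15.7% of all genes called (6.67% higher and 9.0% lower). LmnB1_6 had 5 higher and 3 lower (median 0.01), with 37.2% of all genes called (17.1% higher and 20.1% lower). Complex I and complex IV gave most of the lower calls of LmnB1_16 against mCherry_3, at 16 of 38 and 7 of 12, and at 9 of 38 and 4 of 12 without LmnB1_16 replicate 2. With the length trend removed they gave 18 and 9, and the nuclear members had 7 higher and 36 lower in this contrast, beside 47.1% of all genes called. Without LmnB1_16 replicate 2, LmnB1_16 had 7 higher and 18 lower against mCherry_3 and 1 higher and 0 lower against mCherry_4, where the median turned to 0.01 with 42 of 91 below 0 in place of 74. The count of 0 was also 0 with DESeq2 and limma, and it was 7 lower without replicate 1 of LmnB1_16 and 3 lower without replicate 3, and 4 lower with the length trend removed. Over all 104 members, the 33 calls of LmnB1_16 against mCherry_3 were 19 without replicate 2 of mCherry_3. The 28 calls of LmnB1_6 against mCherry_3 were 18 without replicate 2 of LmnB1_6 and 16 without replicate 2 of mCherry_3. The 8 calls of LmnB1_6 against mCherry_4 were 5 without replicate 1 or 2 of either clone and 14 without replicate 2 of LmnB1_16. The members called lower in LmnB1_6 against mCherry_4 were NDUFAF3, NDUFB5 and SDHA, at -0.43, -0.24 and -0.17. Those called higher were NDUFA12 at 0.38, NDUFC2 at 0.30, NDUFB11 at 0.25, UQCRH at 0.25 and UQCRC1 at 0.23. Of these 8, NDUFAF3 and UQCRC1 stayed called when any 1 library was left out, and the other 6 were each lost in 2 to 4 of 12 cases.

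The order of the clone means showed mCherry_3 as the high clone. Among 91 nuclear members, mCherry_3 had the highest mean for 49 (53.8%), LmnB1_6 for 27, mCherry_4 for 14 and LmnB1_16 for 1, and among all genes mCherry_3 was highest for 31.4%. The lowest mean was that of LmnB1_16 for 53, LmnB1_6 for 15, mCherry_4 for 12 and mCherry_3 for 11. Both LmnB1 means lay below both mCherry means for 33 members (36.3%) and above them for 5 (5.49%), and over all genes for 20.2% and 20.5%. Without LmnB1_16 replicate 2, mCherry_3 was still highest, for 47 members, while LmnB1_16 was lowest for 21, LmnB1_6 for 26 and mCherry_4 for 29. Both LmnB1 means were then lower for 22 members (24.2%), near the 20.3% of all genes, and higher for 14 (15.4%). In complex IV, mCherry_3 was highest for 9 of 12 members with and without that library.

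Between the 2 mCherry clones, 19.2% of the 104 tested members were called in the fit with each clone as its own group. This share is not on the footing of the construct comparison. In mCherry_4 against mCherry_3, 5 nuclear members were higher and 15 lower, a median of -0.08, with 37.4% of all genes called (19.9% higher and 17.4% lower). Of complex I, 9 were lower and NDUFB10 was higher. The lower members of complex I included NDUFB1, NDUFV1, NDUFA13, NDUFS4, NDUFC2, NDUFB5, NDUFS7 and NDUFA11, with log2 fold changes of -0.40 to -0.21. NDUFV1 binds the NADH that feeds the chain, and NDUFS7 lies next to the quinone site. The other lower members were UQCR11 and UQCRB of complex III, SDHC of complex II, ATP5F1E of complex V, COX7A2 of complex IV and the assembly factor NDUFAF1. Higher in mCherry_4 were the assembly factors NDUFAF4, NDUFAF6 and NDUFAF2, at 0.65, 0.34 and 0.29, with NDUFB10 at 0.21 and UQCRC1 at 0.19. With no scaling factors, the median of all genes moved by -0.14, and 1 nuclear member was higher and 46 lower, beside 41.6% of all genes called. NDUFAF2, NDUFAF6 and UQCRC1 were then not called. The UQCRC1 call was also lost without replicate 3 of mCherry_4, with an adjusted p of 0.0533. Without LmnB1_16 replicate 2, which enters the shared spread, the counts were 7 higher and 28 lower, beside 39.4% of all genes called. The total was 9 without replicate 2 and 11 without replicate 3 of mCherry_3, and 11 without replicate 1 and 8 without replicate 2 of mCherry_4.

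NDUFAF4, an early assembly factor of complex I, differed most between the mCherry clones. NDUFAF4 had 13.6, 13.9 and 14.5 CPM in mCherry_4, against 10.2, 9.03 and 7.59 CPM in mCherry_3. LmnB1_16 had 13.4, 12.4 and 15.5 CPM and LmnB1_6 15.3, 14.1 and 12.6 CPM. All 3 mCherry_3 libraries lay below the other 9, with a log2 fold change of 0.65 (SE 0.12, adjusted p = 0.000605). NDUFAF6 had 9.84, 12.9 and 12.2 CPM in mCherry_4, against 8.56, 9.60 and 9.55 CPM in mCherry_3. NDUFAF2 had 17.1, 19.6 and 17.4 CPM in mCherry_4, against 15.8, 15.6 and 12.8 CPM in mCherry_3. NDUFAF6 and NDUFAF2, which also act in complex I assembly, were low in mCherry_3 by smaller steps, with adjusted p of 0.0459 for NDUFAF6 and 0.0267 for NDUFAF2. The LmnB1 clones had 13.1, 9.88 and 10.8 CPM of NDUFAF6 in LmnB1_16 and 12.4, 12.1 and 12.1 CPM in LmnB1_6. Of NDUFAF2 there were 18.3, 16.5 and 17.4 CPM in LmnB1_16 and 16.4, 17.4 and 16.8 CPM in LmnB1_6. In both genes mCherry_3 had the lowest mean. The NDUFAF6 call was lost in 9 of 12 cases when 1 library was left out, and that of NDUFAF2 without replicate 2 of mCherry_4 or replicate 3 of mCherry_3.

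The lowest log2 fold changes in mCherry_4 against mCherry_3 were those of NDUFB1, UQCR11 and NDUFA3. NDUFB1 had 25.6, 14.4 and 17.7 CPM in LmnB1_16, 14.98, 18.0 and 14.4 in LmnB1_6, 17.8, 17.4 and 16.4 in mCherry_4 and 21.4, 24.1 and 22.8 in mCherry_3. NDUFB1, a small subunit of complex I, was higher in mCherry_3 than in mCherry_4, with a log2 fold change of -0.40 (SE 0.15, adjusted p = 0.0492), and its highest library was replicate 1 of LmnB1_16. UQCR11 had 77.8, 52.1 and 71.3 CPM in LmnB1_16, 64.6, 60.8 and 66.6 in LmnB1_6, 61.1, 58.2 and 67.2 in mCherry_4 and 74.4, 87.5 and 81.5 in mCherry_3. UQCR11, a small subunit of complex III, was high in mCherry_3 and in LmnB1_16 replicates 1 and 3, with a log2 fold change of -0.38 (SE 0.11, adjusted p = 0.0115) between the mCherry clones. The NDUFB1 call was lost in 10 of 12 cases when 1 library was left out, and that of UQCR11 without replicate 2 of mCherry_4 or of mCherry_3. NDUFA3 had 27.3, 15.5 and 20.2 CPM in LmnB1_16, 19.2, 22.3 and 18.8 in LmnB1_6, 23.2, 22.2 and 20.3 in mCherry_4 and 27.8, 31.1 and 24.8 in mCherry_3. NDUFA3, another small subunit of complex I, did not pass, with a log2 fold change of -0.35 (SE 0.15, adjusted p = 0.0755), though it did without replicate 1 or 2 of LmnB1_16, at -0.35 in both cases.

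Between the LmnB1 clones 11 nuclear members were called, 1 higher and 10 lower in LmnB1_16 against LmnB1_6, with 34.4% of all genes called (17.8% higher and 16.6% lower). The 7 lower members of complex I were NDUFB2, NDUFA12, NDUFS5, NDUFA11, NDUFC2, NDUFA13 and NDUFA10, with log2 fold changes of -0.38 to -0.17. UQCRH and UQCRC1 of complex III and COX5A of complex IV were also lower, at -0.26, -0.22 and -0.19. The assembly factor NDUFAF3 was higher. Without replicate 2 of LmnB1_16, 3 were higher and 6 lower, beside 31.7% of all genes called, and the nuclear median was 0.00 and not -0.09. NDUFA10, NDUFA11, NDUFAF3, NDUFB2, NDUFS5, UQCRC1 and UQCRH remained called, NDUFB1 and UQCR11 were newly called as higher, and NDUFA12, NDUFA13, NDUFC2 and COX5A were lost. The count was 26 without replicate 1 of LmnB1_16, and 6 without replicate 1 and 7 without replicate 2 of LmnB1_6.

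NDUFB2 had 53.2, 38.2 and 57.3 CPM in LmnB1_16, against 63.7, 62.8 and 66.9 CPM in LmnB1_6. NDUFB2, an accessory subunit of complex I, was lower in each library of LmnB1_16 than in each of LmnB1_6, with a log2 fold change of -0.38 (SE 0.11, adjusted p = 0.0113). In the mCherry clones it was at 56.2, 57.5 and 63.4 CPM in mCherry_4 and 65.5, 70.7 and 70.6 CPM in mCherry_3. NDUFA12 had 45.6, 28.3 and 40.2 CPM in LmnB1_16, against 50.8, 46.2 and 50.3 CPM in LmnB1_6. NDUFA12 also fell, with a log2 fold change of -0.37 (SE 0.12, adjusted p = 0.0253), a call that was lost without the low replicate 2 of LmnB1_16, at -0.20, and without replicate 1 or 3 of LmnB1_6. In the mCherry clones it was at 36.0, 37.3 and 40.2 CPM in mCherry_4 and 41.2, 43.9 and 46.0 CPM in mCherry_3. For NDUFS5 the same contrast gave a log2 fold change of -0.33 (SE 0.08, adjusted p = 0.00387). NDUFAF3 had 52.7, 36.2 and 46.5 CPM in LmnB1_16, against 37.5, 35.7 and 34.2 CPM in LmnB1_6. NDUFAF3, a partner of NDUFAF4 in complex I assembly, was the single member called higher in LmnB1_16, with a log2 fold change of 0.34 (SE 0.10, adjusted p = 0.0173), a call lost without replicate 1 (0.21) or 3 (0.31) of LmnB1_16 or replicate 3 of LmnB1_6 (0.31). Its mCherry libraries had 47.5, 45.5 and 52.0 CPM in mCherry_4 and 48.0, 46.5 and 46.3 CPM in mCherry_3, so LmnB1_6 was the low clone. NDUFB1 and MT-ND4L had the next largest rises in LmnB1_16, at 0.28 (adjusted p = 0.180) and 0.21 (adjusted p = 0.345), and neither passed. MT-ND4L did without replicate 3 of LmnB1_16 (0.38), and NDUFB1 without replicate 2 (0.45).

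Promoters of members were examined for 3 motifs in a window from 250 bases before to 50 bases after the gene start, taken from RefSeq (GRCh38.p14), which held 78 of the 112 members among 27305 genes. GCATGCG, the core of the NRF1 site, was present on either strand in 16 of 78 member promoters (20.5%) and in 4.74% of all promoters. CGGAAGT, a site of GABPA and other ETS factors, was in 14 (17.9%, against 8.18% of all), and AGATGGC, a YY1 site, in 15 (19.2%, against 6.63% of all). At least 1 of the 3 was in 36 of 78 (46.2%, against 17.6% of all). The motifs are distinct strings, and a match is a description of the sequence only. Shown are the promoters of UQCRC1 and NDUFAF4, 2 of the 11 nuclear members with their lowest mean in mCherry_3, and of NDUFA8, an accessory subunit of complex I whose promoter also holds the NRF1 motif. The motif begins at base 275 of the 300 in UQCRC1 and at base 258 in NDUFAF4, both after the gene start. In NDUFA8 it begins at base 249, just before the start. All 3 promoters lie on the minus strand of the genome and are written 5′ to 3′ along the gene. The motif is in capitals: AGATGGC in UQCRC1, and the NRF1 motif in NDUFAF4 (where it lies on the opposite strand) and NDUFA8.
UQCRC1, chr3:48609597-48609896: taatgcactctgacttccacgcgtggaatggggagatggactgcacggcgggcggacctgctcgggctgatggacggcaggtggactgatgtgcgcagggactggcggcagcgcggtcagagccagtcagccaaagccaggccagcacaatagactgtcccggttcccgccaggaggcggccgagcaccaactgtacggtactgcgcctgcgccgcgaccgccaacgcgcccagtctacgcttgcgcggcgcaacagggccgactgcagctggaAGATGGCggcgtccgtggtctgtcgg
NDUFAF4, chr6:96897842-96898141: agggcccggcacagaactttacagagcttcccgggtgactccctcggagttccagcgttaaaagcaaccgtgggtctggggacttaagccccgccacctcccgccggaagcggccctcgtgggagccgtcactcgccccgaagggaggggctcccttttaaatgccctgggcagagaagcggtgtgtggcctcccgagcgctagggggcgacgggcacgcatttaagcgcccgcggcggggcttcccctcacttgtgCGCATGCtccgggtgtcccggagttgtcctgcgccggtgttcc
NDUFA8, chr9:122159730-122160029: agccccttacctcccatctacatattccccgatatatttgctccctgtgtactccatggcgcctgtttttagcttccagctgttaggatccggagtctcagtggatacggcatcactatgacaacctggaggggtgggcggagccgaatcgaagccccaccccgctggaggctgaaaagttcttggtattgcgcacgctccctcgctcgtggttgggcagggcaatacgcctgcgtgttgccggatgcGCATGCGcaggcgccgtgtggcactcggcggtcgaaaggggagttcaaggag
NDUFA8 had 40.1, 28.8 and 43.3 CPM in LmnB1_16, 37.0, 37.1 and 37.3 in LmnB1_6, 38.7, 40.6 and 42.9 in mCherry_4 and 45.0, 46.8 and 48.4 in mCherry_3. NDUFA8 was highest in mCherry_3 and NDUFAF4 lowest, and all 3 genes were chosen after their values were seen. Of the 16 members with the NRF1 motif, mCherry_3 had the highest mean for 11 and the lowest for 3. Among all 91 tested nuclear members it was highest for 49 (53.8%) and lowest for 11, and a difference by motif was not tested.

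Across the 12 libraries the nuclear members followed the mean of the other nuclear members more closely than that of the mitochondrial genes. The values are Pearson correlations of log2 CPM over 12 libraries of 4 clones, given as description, with each gene left out of the mean. The nuclear members had a median r of 0.70 with the mean of the other nuclear members, and 65 of 91 were over 0.5. Their median r with the mean of the mitochondrial genes was -0.15. The mitochondrial genes had a median r of 0.77 with the mean of the other mitochondrial genes, 11 of 13 over 0.5, and of -0.24 with the nuclear mean. The 2 means had an r of -0.23. COX8A, COX6A1, NDUFA2 and ATP5PF were most like the nuclear mean (r of 0.98, 0.96, 0.95 and 0.95), and NDUFAF4 and NDUFAF2 least (-0.31 and -0.22). The points share library depth, and the part of LmnB1_16 replicate 2 in these values was not tested. Per library, the median deviation of the mitochondrial genes was lowest in mCherry_4 replicate 3 (-0.26) and LmnB1_16 replicate 3 (-0.20) and highest in LmnB1_6 replicate 2 (0.16), a spread within clones as wide as that between them.

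Other genes of the mitochondrial system were counted in the construct comparison, against the same 17.8% of all genes. Of 13 regulators of mitochondrial biogenesis, 5 were higher in LmnB1 (GABPA, YY1, GABPB1, SP1 and NRF1) and 0 lower, with a median of 0.19. Of 32 genes that copy, transcribe and process mitochondrial DNA and RNA, TFAM and TRMT10C were higher and HSD17B10 lower (median 0.07). Of 19 abundant proteins used as references of mitochondrial mass, LONP1, VDAC3 and PHB2 were higher and SLC25A4 lower (median 0.08). Of 78 mitochondrial ribosomal proteins 6 were higher and 3 lower (median 0.04), and of 48 further assembly factors FOXRED1 was higher and SDHAF1, UQCC1 and COA3 lower (median -0.02). Without mCherry_3 the counts higher and lower were 0 and 0 for the regulators, 1 and 0 for the DNA and RNA genes, 0 and 1 for the mass references, 1 and 0 for the ribosomal proteins and 0 and 1 for the assembly factors, where 4.32% of all genes were called. The 5 calls among the regulators were also absent without LmnB1_6, where 8.38% were.

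Of the 190 tested genes of these 5 lists, 5 (2.63%) were called in the same direction in all 4 contrasts between the constructs, beside 4.68% of all genes and none of the 104 members. TFAM had 84.1, 88.1 and 86.0 CPM in LmnB1_16, 83.5, 79.3 and 76.6 in LmnB1_6, 67.7, 67.1 and 69.1 in mCherry_4 and 56.9, 59.6 and 59.8 in mCherry_3. TFAM, which packages mitochondrial DNA and starts its transcription, was higher in every LmnB1 library than in every mCherry library, with a log2 fold change of 0.39 (SE 0.06, adjusted p = 0.00225), and stayed called without each library and without each clone. With clone as a random effect its adjusted p was 0.0688. SLC25A4 had 48.4, 47.5 and 51.3 CPM in LmnB1_16, 60.3, 60.4 and 61.1 in LmnB1_6, 96.2, 104 and 92.2 in mCherry_4 and 111, 106 and 103 in mCherry_3. SLC25A4, the heart and muscle form of the ADP/ATP carrier that exchanges the product of complex V, was lower in every LmnB1 library, with a log2 fold change of -0.90 (SE 0.08, adjusted p = 3.73e-05), and had an adjusted p of 0.00268 with clone as a random effect. SDHAF1, an assembly factor of the iron-sulfur subunit of complex II, averaged 5.60 ± 0.589 CPM in LmnB1_16 and 6.42 ± 1.05 in LmnB1_6, against 9.36 ± 0.530 in mCherry_4 and 11.2 ± 1.40 in mCherry_3 (SD, n = 3), with a log2 fold change of -0.78 (SE 0.12, adjusted p = 0.00264). COA3, an early assembly factor of complex IV, averaged 29.1 ± 4.63 CPM in LmnB1_16 and 30.1 ± 2.20 in LmnB1_6, against 37.8 ± 2.25 in mCherry_4 and 36.1 ± 1.75 in mCherry_3, with a log2 fold change of -0.32 (SE 0.08, adjusted p = 0.0170), and was not called without LmnB1_6, mCherry_4 or mCherry_3. MRPL45, a protein of the large mitochondrial ribosomal subunit, averaged 25.2 ± 2.78 CPM in LmnB1_16 and 28.1 ± 1.38 in LmnB1_6, against 15.6 ± 1.24 in mCherry_4 and 19.9 ± 0.743 in mCherry_3, with a log2 fold change of 0.59 (SE 0.10, adjusted p = 0.00392). With clone as a random effect the adjusted p was 0.155 for SDHAF1, 0.387 for COA3 and 0.105 for MRPL45. The mitochondrial transcripts themselves were not called in the construct comparison by edgeR, while DESeq2 called MT-CO1 higher.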

How the data were processed

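For each of the 12 libraries the authors deposited gene-level estimated counts, not normalized, and TPM, scaled by effective transcript length, per the file headers. STAR, Salmon, DESeq2 and the build GRCh38 are named in the submitters' processing notes; the sources used here give no versions, strand or annotation release. The estimated counts that the authors deposited were rounded, filtered with filterByExpr grouped by clone (minimum count 10, minimum total 15; 15388 genes), scaled by TMM and tested with edgeR 4.0.16 in R 4.3.3 (glmQLFit, glmQLFTest; two-sided, Benjamini-Hochberg over all genes tested, called at an adjusted p under 0.05), after a test on simulated data. The construct fit set 6 LmnB1 against 6 mCherry libraries. A fit with the 4 clones as groups gave single-clone contrasts. SE is the absolute log2 fold change divided by the root of F, and 95% intervals use the t quantile at the residual degrees of freedom. CPM use TMM-scaled totals; TPM were used for levels and, as log2 with a pseudocount of 0.5 or 0.1, in limma 3.58.1 as an alternative. Of 60708 genes, 60696 had a symbol and 58440 a GENCODE 29 position.

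Values by library are given for the called member, the 2 highest members by TPM of each complex, the alternative isoforms, the mitochondrial genes with the largest and smallest construct change, and the 3 largest rises and falls within each construct at a mean of at least 1 CPM; the other members by count and range. The members and lists were chosen with earlier results of these data known. The alternatives were DESeq2 1.42.0, RLE or no scaling factors, library sizes without mitochondrial genes, no filter, limma on TPM, a replicate block, each library or clone left out, counts summed per clone and clone as a random effect; removal of the length trend, and the counts per contrast, list and clone order without LmnB1_16 replicate 2 or without a clone, were added after seeing the data. No 2 libraries of a clone agreed within sampling noise (chi-square per degree of freedom at least 3.73). The single values of 1 member are not reported here.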

Additional observations from a re-analysis of the deposited data

Results flagged for a closer look

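LmnB1_16 replicate 2 lay far below the other 5 LmnB1 libraries in 8 nuclear members. In this library ATP5MC1 was at 46.1 CPM, ATP5MC2 at 122 CPM, ATP5MF at 57.3 CPM and UQCRQ at 64.5 CPM. Of complex IV, COX4I1 was at 146 CPM, COX6A1 at 75.1 CPM, COX8A at 87.5 CPM and NDUFA4 at 44.98 CPM. The same library was apart in the summed TPM of complex I (6144), complex III (1725), complex IV (3499) and complex V (6291), and in the share of counts on nuclear members (0.604%). NDUFB1 was high in LmnB1_16 replicate 1, at 25.6 CPM. MT-ND4L was high in mCherry_4 replicate 2, at 274 CPM among the 6 mCherry libraries. Of 108 groups of 6 libraries examined, 15 (13.9%) held such a library, and 13 of the 15 were LmnB1_16 replicate 2. The cut-off is set for about 1 in 20 in a single uniform sample. These groups repeat the same libraries and each mixes 2 clones, so that rate does not apply and the count is a description.

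The 2 LmnB1 clones differed in 11 nuclear members at an adjusted p under 0.05 (edgeR), so for these their changes against the same mCherry libraries differ. They are 12.1% of the nuclear members tested, against 34.4% of all genes tested. The log2 fold change of LmnB1_16 against LmnB1_6 was -0.38 for NDUFB2, -0.37 for NDUFA12, -0.33 for NDUFS5, -0.31 for NDUFA11, -0.26 for NDUFC2, -0.25 for NDUFA13 and -0.17 for NDUFA10, all of complex I. It was -0.26 for UQCRH and -0.22 for UQCRC1 of complex III, -0.19 for COX5A of complex IV and 0.34 for the assembly factor NDUFAF3. Of these, 7 remained called without LmnB1_16 replicate 2, in which the nuclear members were low.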

How the results depend on the processing

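The 1 member called between the constructs became 9 with DESeq2 (2 higher, 7 lower), 5 with limma on TPM at either pseudocount, 12 with the length trend removed, 0 with counts summed per clone or with clone as a random effect, 7 without LmnB1_16, 0 without LmnB1_6, 18 without mCherry_4 and 0 without mCherry_3. Leaving out 1 library gave 1 to 4. NDUFB5 kept its direction under every alternative, but its adjusted p was 0.778 with summed counts and 0.298 with the random effect. The count of members called alike in all 4 contrasts was 0, and 1 with the length trend removed. Between the LmnB1 clones, 11 calls became 23 with no filter and 6 to 26 when 1 library was left out. Between the mCherry clones, 20 became 50 with no scaling factors, 31 with no filter, 43 with limma on TPM and 8 to 35 when 1 library was left out. In this contrast 37.4% of all genes were called, 41.6% with no scaling factors and 30.5% by limma with a pseudocount of 0.5. The causes were not tested. Between the constructs, the medians of both genomes and the mitochondrial share kept their sign; the share differed by 0.0460 to 0.156 points over libraries left out. Of 50 named members, 21 changed sign in the construct comparison under some setting, none of them in a called value.

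The labels do not say that a replicate number marks a shared day or batch, and not every same-numbered pair was over 0.1, so the numbers were not taken as pairs. Same-numbered libraries of different clones had correlations of -0.082 to 0.249 (median 0.046), 4 of 18 over 0.1, against a maximum of 0.084 and 0 of 36 over 0.1 for different numbers, and 11 of 12 libraries lay closer on average to their own number, a hint from the data and not the design. With a replicate block the counts were 1 between the constructs, 14 between the LmnB1 clones, 19 between the mCherry clones and 2 for LmnB1_16 against mCherry_4, where the fit without it had 0; NDUFB5 had an adjusted p of 0.0287, and NDUFAF6 between the mCherry clones was lost. Of the mitochondrial genes, 3 were called higher in LmnB1_6 and 1 in LmnB1_16 against mCherry_3. Against mCherry_4, 2 were higher in LmnB1_6, and against LmnB1_6, 1 was lower in LmnB1_16. With no filter these counts were 6, 3, 3 and 3. The setting with no filter also called 1 higher in LmnB1_16 against mCherry_4, 1 in LmnB1_16 against LmnB1_6 and 1 in mCherry_4 against mCherry_3.

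With 2 clones per construct, a difference between constructs cannot be told apart from one between clones. Estimated counts of overlapping mitochondrial genes and readthrough genes are uncertain.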
